A study of Homo sapiens with 2 samples.

Results

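Chaperones bind unfolded proteins, and the unfolded protein response and the heat shock response set how much of them a cell makes. Genes of these systems were compared between a pair of MKN1 lines, an established human gastric cancer cell line. Both lines were transfected with pBABE, a retroviral plasmid, and selected with puromycin. One carried RHOA wild-type and the other RHOA Y42C, a tyrosine-to-cysteine change in the small GTPase RHOA, so added RHOA was shared by both, on top of the RHOA gene the line already has. Total RNA of each was measured on 1 Affymetrix array. Each line thus has a single array (n = 1) and no replicate check, and no difference below has an error between samples or a test. The comparison asks how the mutant line differed from the wild-type line. An empty-vector line was not analysed here, so a difference cannot be assigned to a change in either of the lines, and the sources used here do not say whether a line was a clone or a pool.

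The members were 90 of 17687 named genes, each with 1 probe set, chosen by symbol: the J proteins DNAJA, DNAJB and DNAJC, the HSPA, HSPB, HSP90, CCT, PDIA and HSF families, and 14 named genes from HSPD1 to HERPUD1. They were placed in compartments by hand: 50 in the cytosol and nucleus, 28 in the endoplasmic reticulum (ER), 10 in mitochondria, and 2, DNAJC6 and DNAJC13, in membrane traffic. HSPA8, HSPA1B, HSP90B1, HSF2, PDIA5 and DNAJC5 also fit the symbols, among others, but are not analysed here. Signals are deposited values, taken as log2, and differences are Y42C minus wild-type, so 1 unit is 2-fold. Genes were kept if either array was at or above the 95th percentile of 349 olfactory receptor genes there, 5.17 for wild-type and 5.14 for Y42C. This minimum kept 75 members and 11802 genes in all. RHOA itself read 16.47 (wild-type) and 16.30 (Y42C). Of 6 epithelial markers, 5 were above the minimum, with KRT8 at 17.96 and 17.94, and the cadherin CDH1 was below it in both arrays (3.92 and 3.86). Of 4 leukocyte markers 3 and of 5 endothelial markers 3 lay above it on at least 1 array, at no more than 7.45 for any of them. The part of those signals in the results was not tested.

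As background, HSP70 proteins hold short stretches of an unfolded chain and let go in a cycle driven by ATP. J proteins hand substrates to HSP70 and start ATP hydrolysis, and exchange factors such as BAG3 and the HSP110 proteins end the cycle. HSP90 finishes kinases and receptors, and the CCT ring and its mitochondrial counterpart HSPD1-HSPE1 enclose a chain while it folds. In the ER, the sensors ERN1 and ATF6 and the kinase EIF2AK3 respond to unfolded protein, and XBP1 and cleaved ATF6 then switch on ER chaperone genes. In the cytosol, HSF1 does the same for heat shock genes.

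No broad induction or loss of chaperone transcripts separated the lines. Among the 75 members that passed the minimum, Y42C signal was 2-fold or more higher in 0, where 7.46% of all genes were, and 2-fold or more lower in 9 (12.0%), where 9.80% of all genes were. The share of members past 2-fold lower is near the share among all genes. By any amount, 45 of the 75 members were lower, and 54.2% of all genes were. The 9 were HSPA14, DNAJC19, DNAJC17, DNAJC30, DNAJC28, HSPA13, DNAJC14, CRELD2 and CCT2. They are 5 J proteins, a pair of atypical HSP70 relatives, a small ER protein and a subunit of the CCT ring. J proteins made up 37 of the 75 members. Of these J proteins 13.5% were at least 2-fold lower, against 10.5% of the other members. The median of the members was -0.14, against -0.07 over all genes. The middle 50% of members lay between -0.64 and 0.19, and the middle 50% of all genes between -0.55 and 0.39. At the looser limit of 1.5-fold, 4 members were higher, where 17.8% of genes were, and 20 were lower, where 23.4% of genes were. Past 4-fold there were 0 members in either direction, where 1.0% of genes were higher and 0.585% lower. The 4 were DNAJC21, DNAJC13, CCT8L2 and DNAJA4, and the wild-type signal of CCT8L2 (4.98) was below the minimum, which leaves it at least 1.41-fold higher.

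Of the 9 lower members, 3 lay close to the 2-fold limit: DNAJC14 (-1.04), CRELD2 (-1.03) and CCT2 (-1.01). SDF2L1 (-0.99) and DNAJC21 (0.97) lay just short of it. When each array was centred on its median, DNAJC14, CRELD2 and CCT2 fell short of 2-fold and DNAJC21 passed it. This gave 1 higher and 6 lower members, where 8.73% of all genes were higher and 8.74% lower.

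**Figure D1:**
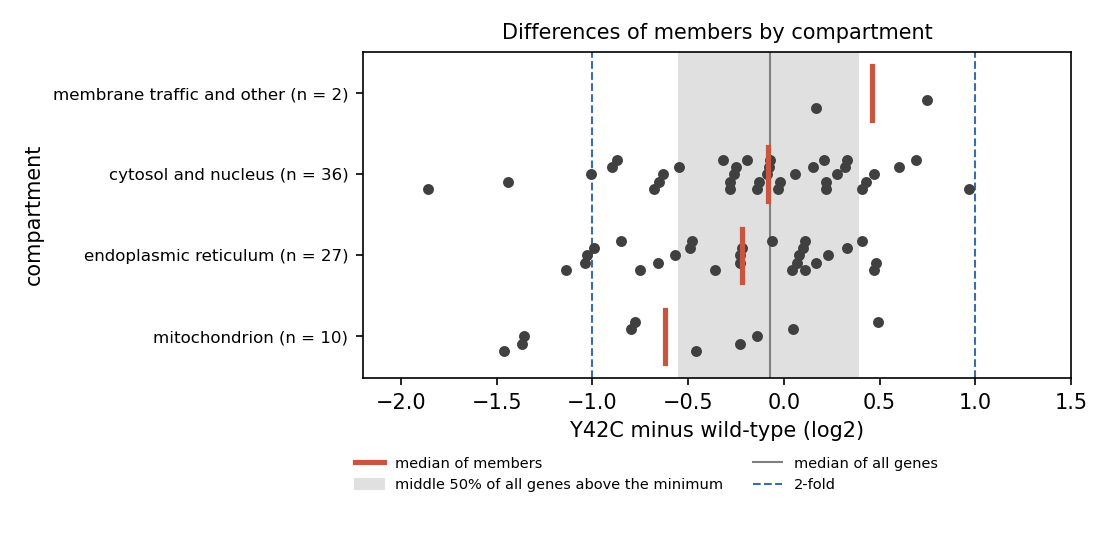
Each point is a member above the minimum, placed on the horizontal axis by its difference (Y42C minus wild-type, log2) and on the vertical axis by compartment, with spread in height only to separate points. Red bars are medians of members, the grey band is the middle 50% of all genes and dashed lines mark 2-fold. The mitochondrial median, -0.62, lies left of the band, whose edge is at -0.55, and no point lies right of the upper 2-fold line.

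Mitochondrial members were mostly lower in the Y42C array. Of 10, all above the minimum, 8 were lower (80.0%, against 54.2% of all genes) and 2 higher, 3 were at least 2-fold lower (3 of 10, against 9.80%), and the median was -0.62. HSPA9, the mitochondrial HSP70, read 15.34 with wild-type and 14.54 with Y42C, a difference of -0.80; pairs of values below keep this order. HSPD1, the chaperonin of the mitochondrial matrix, read 15.36 and 14.58, a difference of -0.78. HSPE1, the lid of that chaperonin, differed less, at 13.32 and 13.09 (-0.23). So these 3 matrix chaperones were all lower, by unequal amounts. HSPD1 and HSPE1 lie head to head: in RefSeq (GRCh38.p14) the starts listed for HSPD1 are 105 and 539 bases from that of HSPE1, on opposite strands.

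The 3 mitochondrial genes past 2-fold were all J proteins, a class that made up 7 of the 10 mitochondrial members. DNAJC19, an inner-membrane cochaperone of HSPA9 at the import motor, read 9.70 and 8.24, 2.75-fold lower. DNAJC30, an inner-membrane J protein, read 7.15 and 5.78, 2.58-fold lower. DNAJC28 read 7.85 and 6.49, 2.57-fold lower. These sit apart from DNAJC15, the paralog of DNAJC19 at the same motor, which read 14.04 and 13.90, a difference of -0.14. DNAJA3, a matrix J protein, differed by -0.46, and DNAJC4 by 0.05. DNAJC11, linked to the cristae scaffold of the inner membrane, was the highest at 0.49 (11.64 and 12.13).

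Partners outside the member rule differed in both directions. Of 21 mitochondrial cochaperones and proteases listed by hand, 18 were named here and all 18 were above the minimum. Of these, 13 were lower (72.2%, against 54.2% of all genes) and 5 higher. At least 2-fold lower was 1 (5.56%, against 9.80% of all genes), and 0 were at least 2-fold higher (against 7.46%). The median was -0.50, against -0.07 over all genes. The exchange factors of HSPA9 were both lower, GRPEL2 by 2.08-fold (10.83 and 9.77) and GRPEL1 by a difference of -0.77 (13.24 and 12.47). TRAP1, the mitochondrial HSP90, differed by -0.77 as well, and the matrix protease subunits CLPX and CLPP by -0.66 and -0.53. The 5 higher genes were CLPB, a disaggregase of the intermembrane space (0.59), TIMM44, which tethers HSPA9 to the import channel (0.56), PHB1 (0.36), the protease YME1L1 (0.27) and BCS1L (0.25).

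**Figure D2:**
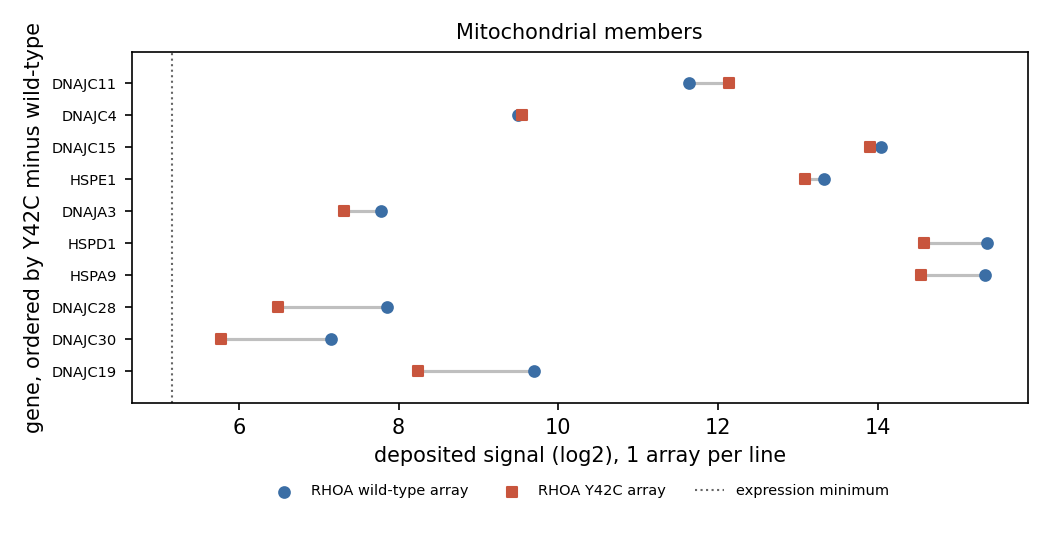
Each line joins the wild-type (blue circle) and Y42C (red square) signal of a mitochondrial member on the log2 axis, with genes on the vertical axis ordered by difference. The dotted line is the wild-type minimum, 5.17. DNAJC19, DNAJC30 and DNAJC28 at the bottom have the longest gaps, while DNAJC11 and DNAJC4 are the 2 genes with the red square on the right.

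ER members were lower about as often as genes in general. Of 28, 27 were above the minimum, and PDIA2, a pancreatic isomerase, was below it in both arrays (3.72 and 3.81). Of the 27, 15 were lower (55.6%, against 54.2% of all genes) and 12 higher, 3 were at least 2-fold lower (11.1%, against 9.80%) and 0 at least 2-fold higher, and the median was -0.22. It was -0.10 once a trend of difference on signal level was removed.

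Many ER chaperone genes carry an ER stress response element before their start, which ATF6 and XBP1 are known to use. To show which members share these letters, promoters of RefSeq (GRCh38.p14, 250 bases before and 50 after each listed start) were searched on both strands for a pair of short motifs. ERSE is CCAAT and CCACG with 9 bases between them, and ERSE-II is ATTGG and CCACG with 1 base between them. They differ in spacing and in the strand of their CCAAT part, and no member held an exact match to both. Near matches were not counted. Of 90 members, 82 had at least 1 listed promoter, 109 promoters in all. ERSE was found in 6 members (CALR, CANX, CRELD2, HSPA5, PDIA6 and XBP1), in 8 of the 109 member promoters and in 27 of all 35116 (0.0769%). ERSE-II was found in 3 members (HERPUD1, HYOU1 and SDF2L1), in 3 of the 109 member promoters and in 19 of all promoters (0.0541%). A match here is a match of letters, not a measured binding site. The stretches that hold the motif are given 5′ to 3′ on the strand of the gene, with the motif in capitals. For CANX and PDIA6 only the site is given, since other listed starts lie before it. HYOU1 has a further ERSE-II match at -185 to -175 bases from its start, outside the stretch shown.
HSPA5, chr9:125241344-125241439, minus strand: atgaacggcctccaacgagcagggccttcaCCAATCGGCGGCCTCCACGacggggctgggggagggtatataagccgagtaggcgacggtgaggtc
CALR, chr19:12938359-12938458, plus strand: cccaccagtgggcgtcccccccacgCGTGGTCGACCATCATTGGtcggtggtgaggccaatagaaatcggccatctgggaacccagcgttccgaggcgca
XBP1, chr22:28800570-28800651, minus strand: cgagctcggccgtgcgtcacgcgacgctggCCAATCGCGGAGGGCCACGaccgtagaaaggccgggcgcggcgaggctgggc
CRELD2, chr22:49918524-49918623, plus strand: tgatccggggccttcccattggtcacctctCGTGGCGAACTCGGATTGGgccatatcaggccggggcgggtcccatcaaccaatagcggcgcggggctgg
PDIA6, chr2:10812847-10812876, minus strand: ccggaCCAATGAGCCGCAGCCACGgcttgg
CANX, chr5:179698773-179698802, plus strand: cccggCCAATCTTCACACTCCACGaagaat
HERPUD1, chr16:56931995-56932094, plus strand: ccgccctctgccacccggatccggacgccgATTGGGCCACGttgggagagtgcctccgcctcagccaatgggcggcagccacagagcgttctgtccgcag
HYOU1, chr11:119057215-119057314, minus strand: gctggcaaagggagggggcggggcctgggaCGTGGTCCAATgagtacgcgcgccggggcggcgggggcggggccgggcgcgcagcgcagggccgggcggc
SDF2L1, chr22:21642084-21642183, plus strand: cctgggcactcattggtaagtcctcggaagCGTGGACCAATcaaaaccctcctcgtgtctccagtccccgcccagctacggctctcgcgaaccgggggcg

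The 9 members with these elements did not move as a block. Of the 9, 3 were higher and 6 lower, where 54.2% of all genes were lower. The 9 lay between -1.03 (CRELD2) and 0.48 (CALR), with a median of -0.22, against -0.07 over all genes. CANX stood at 0 after centring. HSPA5, also known as BiP, the HSP70 of the ER, read 15.32 and 15.65, a difference of 0.33. CALR, the soluble lectin chaperone, read 16.45 and 16.93, a difference of 0.48. CANX, its membrane-bound relative, read 15.87 and 15.81. Of these 3, HSPA5 and CALR were higher by less than 1.5-fold.

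The lowest 4 of the 9 were CRELD2, SDF2L1, PDIA6 and HYOU1. CRELD2, which ER stress induces, read 7.82 and 6.79, 2.04-fold lower. SDF2L1, which works with HSPA5 and the J protein DNAJB11, read 6.55 and 5.56, a difference of -0.99. HYOU1, the HSP110-type exchange factor of HSPA5, read 14.23 and 13.87, a difference of -0.36, and PDIA6, a disulfide isomerase, 14.83 and 14.35, a difference of -0.48. MANF, a secreted ER stress protein without these letters in its listed promoters, stood with CALR and HSPA5 at 7.97 and 8.44, a difference of 0.47. Thus of the 3 small proteins, CRELD2 and SDF2L1 were lower and MANF higher.

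The 4 sensors, factors and adaptors among the members differed by less than 1.5-fold. ATF6, the membrane-bound factor that is cut on stress, read 11.97 and 12.07. ERN1, the sensor that splices XBP1 RNA, read 6.66 and 6.43, and XBP1 read 9.32 and 9.10. HERPUD1, a degradation adaptor and a common marker of the response, read 9.55 and 9.63. All 4 lay within -0.23 and 0.10, and the probe sets were not assumed to separate spliced from unspliced XBP1.

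**Figure D3:**
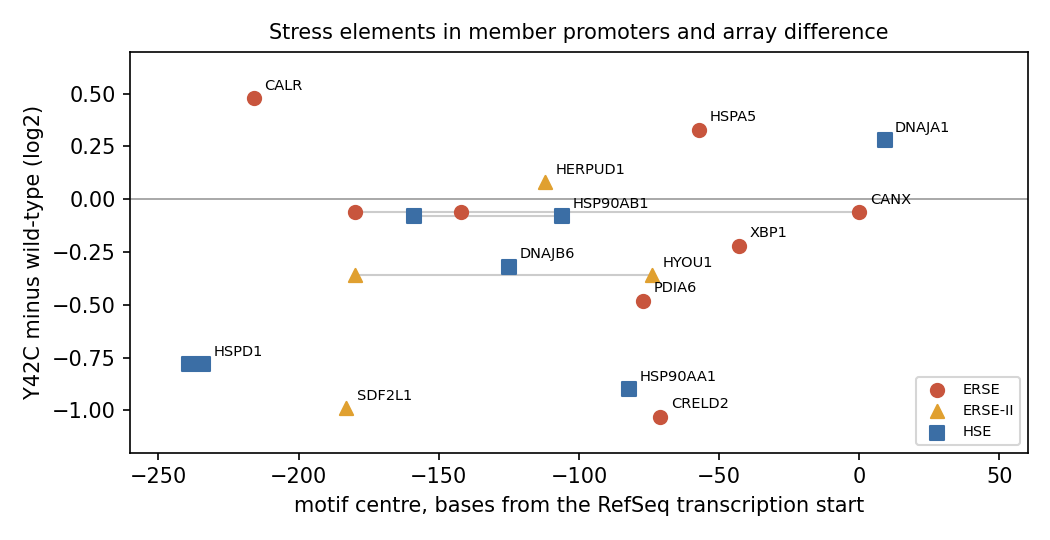
Each point is a stress element found in the promoter of a member above the minimum: its horizontal place is the centre of the motif in bases from a listed RefSeq start, and its height is the difference (Y42C minus wild-type, log2). Grey lines join copies or alternative starts of 1 gene. Points with ERSE or ERSE-II lie between -1.03 (CRELD2) and 0.48 (CALR), and points with the heat shock element (HSE) between -0.90 and 0.28.

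Among disulfide isomerases, PDIA3, the partner of CALR and CANX, read 14.00 and 13.43, a difference of -0.57, and PDIA4 read 11.95 and 12.02. Hence 2 of the 3 measured isomerases were lower by less than 2-fold. Of 12 ER J proteins, 6 were higher and 6 lower. DNAJB9, an ER stress gene that restrains ERN1, was the highest at 9.47 and 9.88, a difference of 0.41. DNAJC3, which is induced with it, differed by 0.23, and DNAJB11 and DNAJB12 by 0.11 and 0.17. The lower 6 included the membrane-anchored DNAJC14 (8.81 and 7.77, 2.06-fold lower), DNAJB14 (-0.85) and DNAJC18 (-0.75). DNAJC22, DNAJC25 and DNAJC10 followed at -0.66, -0.49 and -0.23. DNAJC1 and DNAJC16 were close to 0, at 0.04 and 0.11. DNAJB12 and DNAJB14, which are close relatives in the ER membrane, therefore lay on opposite sides. HSPA13, a short HSP70 relative of the secretory pathway, had the largest ER difference, at 11.67 and 10.53, 2.20-fold lower.

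**Figure D4:**
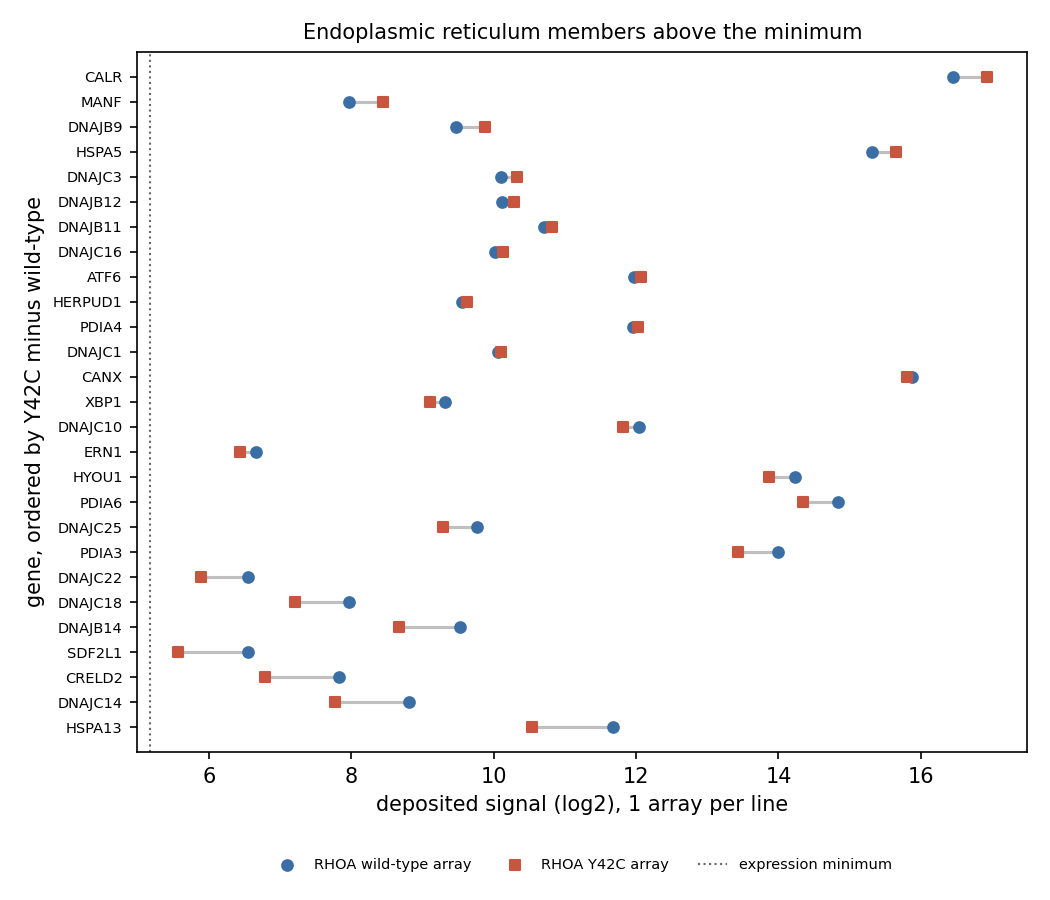
Each line joins the wild-type (blue circle) and Y42C (red square) signal of an ER member on the log2 axis, with the 27 genes on the vertical axis ordered by difference. The dotted line is the wild-type minimum, 5.17. The gaps are longest at the bottom, from SDF2L1 to HSPA13, and CALR at the top is 0.48 higher in the Y42C array.

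Other genes of the ER stress response, from lists written by hand, gave a mixed picture. Of 21 signalling genes, 19 were named here and 17 were above the minimum. Of the 17, ATF6B, PPP1R15A and MBTPS1 were at least 2-fold higher (3, or 17.6%, against 7.46% of all genes). DDIT3 was at least 2-fold lower (1, or 5.88%, against 9.80% of all genes). The median was 0.07, against -0.07 over all genes. ATF6B, the relative of ATF6, was 3.18-fold higher (10.41 and 12.08), and MBTPS1, the protease that starts the cut of both, 2.27-fold (9.59 and 10.77). PPP1R15A, the phosphatase subunit that restores translation after stress, was 2.69-fold higher (8.83 and 10.26). Genes known to act with or below EIF2AK3 differed in both directions. ATF4 read 11.44 and 10.83, a difference of -0.61. ATF3 differed by -0.93, TRIB3 by -0.58 and CHAC1 by -0.32, while SESN2, NUPR1 and PPP1R15B lay at -0.06, 0.07 and 0.08. DDIT3, also called CHOP, read 5.21 and 3.88, but the second value is below the minimum, so it was at least 1.05-fold lower. EIF2AK3 itself read 7.69 and 8.16, a difference of 0.47.

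Genes of ER-associated degradation had 24 of 25 named genes above the minimum (26 were listed), with a median of -0.15, against -0.07 over all genes. At least 2-fold lower were 2 (8.33%, against 9.80% of all genes), and 0 were at least 2-fold higher (against 7.46%). The 2 were UBE2G2, a ubiquitin-conjugating enzyme (2.85-fold, 11.11 and 9.60), and DERL2, a channel component (2.27-fold, 8.14 and 6.96). The ligase SYVN1 and its partner SEL1L differed by 0.21 and -0.58. Of 33 other ER folding and oxidation genes named here (38 were listed), 32 were above the minimum, with a median of -0.22. At least 2-fold lower were 4 (12.5%, against 9.80% of all genes), and 0 were at least 2-fold higher (against 7.46%). KDELR3, a retrieval receptor for ER proteins, was 2.38-fold lower, the thioredoxin-like TMX3 2.30-fold and the prolyl isomerase FKBP14 2.13-fold, and MESD (5.41 and 4.41) at least 1.21-fold. P4HB, the main disulfide isomerase, differed by -0.24. SERPINH1, the collagen chaperone, was the highest of this list at 0.63 (12.15 and 12.78).

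Cytosolic and nuclear members were centred close to all genes. Of 50, 36 were above the minimum. Of the 36, 22 were lower (61.1%, against 54.2% of all genes) and 14 higher. At least 2-fold lower were 3 (8.33%, against 9.80% of all genes), and 0 were at least 2-fold higher (against 7.46%). The median was -0.09, against -0.07 over all genes. The 14 below the minimum were HSPA1L, HSPA6, HSPA12A, HSPA12B, HSF5, HSPB3, HSPB6, HSPB7, HSPB9, DNAJB7, DNAJB8, DNAJB13, DNAJC12 and CCT6B, among them several with known roles in testis or muscle. No fold is given for these. HSPB7 read 5.17 in the wild-type array, just under the unrounded minimum.

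HSF1, the main heat shock factor, read 11.57 and 12.00, a difference of 0.43. The inducible chaperone genes HSPA1A, HSPH1, BAG3, DNAJA1, HSPB1 and DNAJB1 differed by less than 1.5-fold in either direction, and the inducible HSP90AA1 was 1.87-fold lower. HSPA1A, an inducible HSP70 that is near-identical to HSPA1B and may share probes with it, read 11.16 and 11.48. HSPH1, an HSP110 exchange factor, read 14.60 and 15.01, and BAG3, the exchange factor of selective autophagy, 11.76 and 12.23. DNAJA1 read 14.24 and 14.52, and HSPB1, a small heat shock protein that binds actin, 15.58 and 15.80. DNAJB1, the J protein partner of HSPA1A, read 13.27 and 13.02, the other way by -0.25. HSPA6, a strictly inducible HSP70, read 5.05 and 4.71, below the minimum in both arrays.

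HSP90 genes differed from each other. HSP90AA1, the inducible form, read 15.35 and 14.45, a difference of -0.90, and HSP90AB1, the constitutive form, 16.48 and 16.40. Near-identical pseudogene copies exist for both, so probes may not be specific to them. The heat shock element (HSE) was searched on both strands in the same promoter windows as GAA, TTC and GAA with 2 bases between neighbours. Only exact matches were counted, so a member without one may still hold a variant element or one outside the windows. The exact element was found in 6 of 82 members, in 6 of the 109 member promoters and in 172 of all promoters (0.490%). The 6 were HSPA6, HSP90AA1, HSP90AB1, HSPD1, DNAJB6 and DNAJA1, in which the match lies after the start. Sites are shown for the 4 of them that were above the minimum and have the match before the start. The motif is in capitals, and the stretch of HSPD1 holds 2 overlapping copies. HSP90AB1 has a further match at -165 to -153 bases from its start, outside the stretch shown. Other listed starts lie before the sites of HSP90AA1, HSP90AB1 and HSPD1, so only these sites are given.
HSP90AA1, chr14:102087111-102087140, minus strand: gagggttcTTCCGGAAGGTTCgggaggctt
HSP90AB1, chr6:44247823-44247852, plus strand: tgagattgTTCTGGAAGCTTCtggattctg
HSPD1, chr2:197500059-197500088, minus strand: attTTCTGGAAAGTTCTGGAAccgagcgag
DNAJB6, chr7:157336843-157336942, plus strand: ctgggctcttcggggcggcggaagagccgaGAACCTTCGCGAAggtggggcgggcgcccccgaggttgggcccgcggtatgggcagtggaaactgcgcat

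Of the 5 members with this element above the minimum, DNAJA1 was higher and the other 4 lower, where 54.2% of all genes were lower. The 5 lay between -0.90 and 0.28. Having the element did not go with 1 size of difference: HSP90AA1 and HSPD1 were at -0.90 and -0.78, while HSP90AB1 was at -0.08 and DNAJB6 at -0.32.

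In the CCT ring, which folds actin and tubulin, 1 measured subunit was past 2-fold. CCT2 read 14.15 and 13.14, 2.01-fold lower, but fell short of 2-fold after centring (-0.95). The other 6 measured subunits, CCT3, CCT4, CCT5, CCT6A, CCT7 and CCT8, lay between -0.28 (CCT3) and 0.22 (CCT4). CCT5, for example, read 15.36 and 15.29, and CCT8 13.82 and 13.73. CCT8L2, grouped here with the CCT genes but left out of this range, lay at 0.69, with its wild-type signal below the minimum. The TCP1 subunit is not analysed here.

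HSP70 relatives held the largest difference of all members. HSPA14, an HSP70 that sits on the ribosome, read 11.22 and 9.36, 3.63-fold lower. Its partner there, the J protein DNAJC2, read 11.76 and 11.74, so the pair differed unequally. HSPA4, an HSP110-type exchange factor, read 14.09 and 13.41, a difference of -0.68, whereas its relatives HSPA4L and HSPH1 lay at 0.33 and 0.41. HSPA2 read 5.40 and 4.85, the second value being below the minimum.

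Cytosolic and nuclear J proteins lay between -1.44 and 0.97. Of 20, 16 were above the minimum, 5 higher and 11 lower (68.8% lower, against 54.2% of all genes). Centring, quantile normalization or removal of the trend on level each gave 7 higher and 9 lower (56.2%, against 49.8% to 51.6% of all genes), because DNAJC2 and DNAJC9 changed sign. DNAJC17, a nuclear J protein tied to splicing, read 7.46 and 6.02, 2.71-fold lower. DNAJC21, which acts in the making of the large ribosomal subunit, read 10.15 and 11.12, a difference of 0.97. DNAJB5 (7.46 and 6.59) lay at -0.87, DNAJC24, which acts in diphthamide synthesis, at -0.65, and DNAJC27 at -0.63. DNAJA4 lay at 0.60. The general J proteins DNAJA2, DNAJB6 and DNAJC7 lay at -0.28, -0.32 and -0.14. These 3 lay within 1.5-fold, while members of both the general and the specialised types, such as DNAJB5 and DNAJC17, lay outside it. In membrane traffic, DNAJC13, an endosomal J protein, read 9.97 and 10.72, a difference of 0.75, and DNAJC6, which helps to strip clathrin, 6.25 and 6.42.

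**Figure D5:**
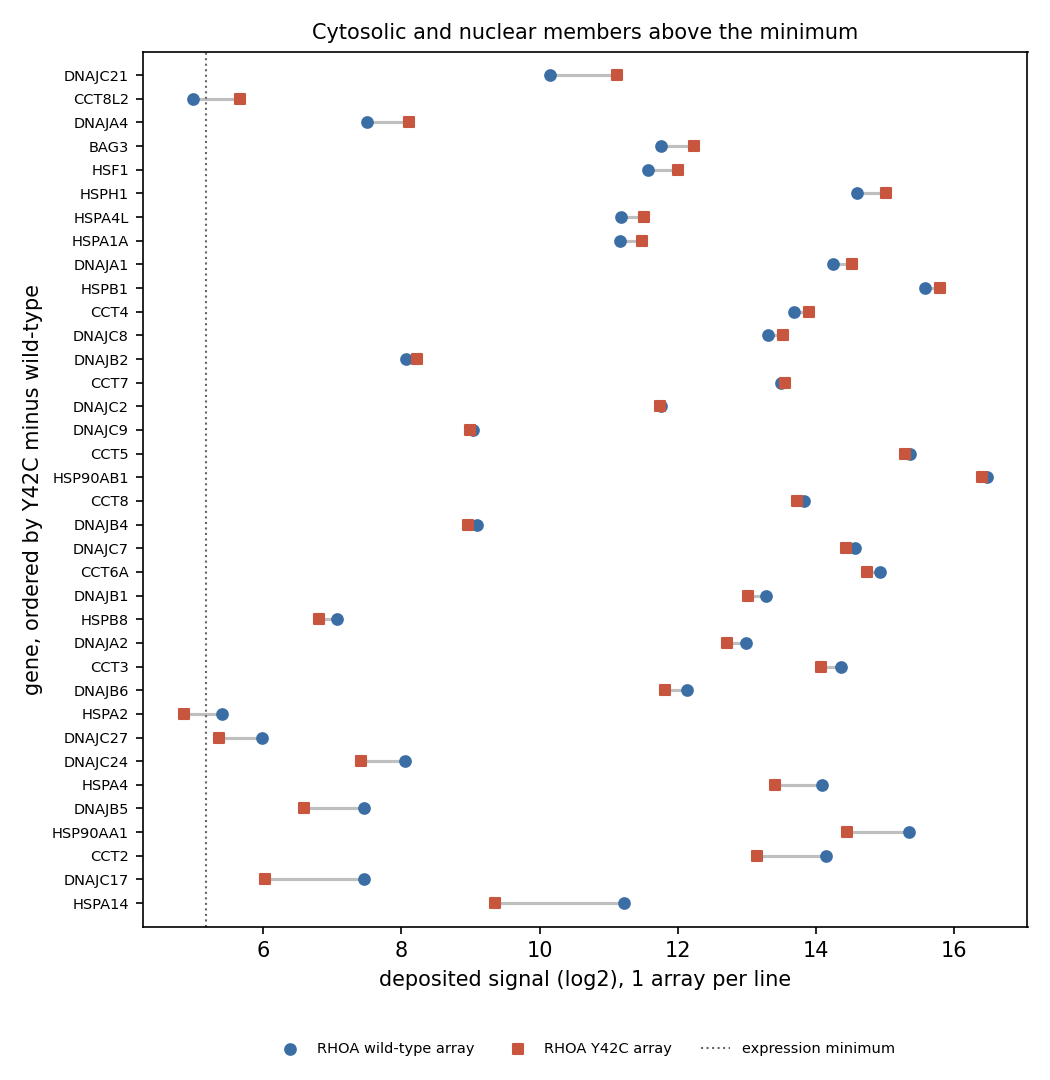
Each line joins the wild-type (blue circle) and Y42C (red square) signal of a cytosolic or nuclear member on the log2 axis, with the 36 genes on the vertical axis ordered by difference. The dotted line is the wild-type minimum, 5.17. HSPA14 and DNAJC17 at the bottom have the longest gaps and DNAJC21 at the top is 0.97 higher in the Y42C array.

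Cytosolic cochaperones outside the member rule were lower about as often as the cytosolic and nuclear members (59.3% and 61.1%, against 54.2% of all genes). Of 36 listed, 28 were named here and 27 above the minimum. Their median was -0.22, against -0.09 for those members and -0.07 over all genes. At least 2-fold lower were 3 (11.1%, against 9.80% of all genes), and 0 were at least 2-fold higher (against 7.46%). The 3 were TXNDC9, a regulator of CCT (2.81-fold, 9.46 and 7.97), HSPBAP1, which binds HSPB1 (2.41-fold, 6.87 and 5.60), and FKBP4, an HSP90 cochaperone (2.20-fold, 12.68 and 11.54). PTGES3, or p23, which closes the HSP90 clamp, lay on the same side at -0.65. STIP1, which links HSP70 to HSP90, differed by 0.05, and BAG1, an exchange factor, was the highest at 0.69 (9.11 and 9.80).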

How the data were processed

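Total RNA of 2 MKN1 lines was measured on 1 array each. The authors deposited a table of 21448 probe sets, processed in Affymetrix Expression Console per the submitters' processing notes. Version, background correction, normalization and genome build were not given in the sources used here. Deposited values, 2.23 to 18.16, were taken as log2 signal from their range, so every fold assumes that base. Array medians were 6.42 (wild-type) and 6.36 (Y42C). Arrays give no read depth, and their number limits the precision.

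The platform annotation named 17709 probe sets with 1 gene, 0 with several, and 3739 are unnamed here. Probe sets of a gene were averaged. A fold whose dimmer value is under the minimum is a lower bound against that minimum. Counts past 2-fold use the deposited values.

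Members and lists were chosen with earlier results of these data known. The naming rule took every member past 2-fold, the 3 highest and 3 lowest of each compartment and a fixed set of well-known chaperones; further members are named with their values, and genes that are no member when past 2-fold or as examples chosen after seeing values. Processing was varied by centring, by quantile normalization, by taking out a lowess trend of difference on level (span 0.3), and by other minimums and folds. Further variants added 16 to the linear value, raised low values to the minimum or took the brightest probe set. The counting of calls was tested on simulated data, which gives no error rate for the calls reported. The software was Python 3.11.15 with NumPy 2.4.6, pandas 2.3.3, matplotlib 3.10.9 and statsmodels 0.14.6.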

Additional observations from a re-analysis of the deposited data

How the results depend on the processing

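Without replicates, stability here means only that a value held under other processing of the same 2 arrays. No paired analysis was possible because each line has 1 array. The count of members at least 2-fold higher was 0 as deposited, 1 after centring, 1 after quantile normalization and 1 after removal of the trend on level (DNAJC21 each time), and 4 at the 1.5-fold limit. Among all genes 7.46%, 8.73%, 8.38% and 8.96% were at least 2-fold higher, in that order, and 17.8% at least 1.5-fold. The count of members at least 2-fold lower was 9 as deposited and 6 under those 3 scalings (without CCT2, CRELD2 and DNAJC14). It was 7 with 16 added to the linear value (without CRELD2 and DNAJC14), 20 at the 1.5-fold limit and 0 at the 4-fold limit. The lower share of all genes moved as well. It was 9.80% as deposited, 8.74% after centring, 8.84% after quantile normalization and 8.16% with the trend removed. With 16 added it was 8.04%, at the 1.5-fold limit 23.4% and at the 4-fold limit 0.585%. The ER median moved from -0.22 to -0.10 with the trend on level removed, by more than the tolerance of 0.1 set for medians. The medians of all members, of the cytosol and nucleus and of mitochondria moved by no more than 0.1 under every alternative run, the mitochondrial one between -0.62 and -0.56. DNAJC2 and DNAJC9 changed sign under the 3 scalings. Of the 51 members that the naming rule picks, 0 changed sign under the 3 scalings. A changed minimum, the added 16 and the brightest of 1 probe set leave a sign as it is, so they do not test it. Raising low values to the minimum can hardly change a sign either. CCT8L2 was not measured with the array median as minimum. The median over all genes was -0.07 as deposited and -0.01 after centring. Low signals limit CCT8L2, HSPA2, DDIT3 and MESD, each below the minimum in 1 array.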
